A study of Mus musculus with 16 samples.

Results

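The cortex of 5xFAD mice was compared with that of wild-type mice, using all 4 libraries labelled 5xFAD and all 4 labelled wild-type, 8 of the 16 libraries of the series. Every gene of the count table that passed a filter on low counts entered the comparison, 17555 of 55385. The series measured polyadenylated RNA of brain cortex in mice aged 9 months, in 4 groups of 4 libraries with 2 females and 2 males each. The wild-type mice were C57BL/6J, and the 5xFAD mice carried the 5xFAD transgenes without any other labelled genotype. The other groups were Dp16 mice, which carry an extra copy of a segment of mouse chromosome 16, and 5xFAD-Dp16 mice, which carry both. In both groups compared, replicates 1 and 3 were female and replicates 2 and 4 were male. The labels name separate samples and say nothing of litters or cohorts, so the p-values measure the spread between these samples.

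The 5xFAD transgenes carry mutations of familial Alzheimer's disease, those of human APP among them, and the Thy1 promoter drives them in neurons. The mice form amyloid plaques in the cortex. Microglia, the resident macrophages of the brain, gather at plaques and take on a state that depends in part on the receptor Trem2, in which lysosomal, lipid-handling and phagocytic genes are high, while nearby astrocytes raise Gfap. In bulk cortex, more cells of a type and more RNA per cell cannot be told apart.

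Levels are library-scaled counts after TMM normalization (CPM), and values of 4 libraries are given in the order of replicates 1 to 4. A gene was called where edgeR's quasi-likelihood test gave a Benjamini-Hochberg adjusted p under 0.05. Library totals ran from 16874481 to 22912168 counts. Wild-type replicate 3 stood apart from the other libraries in how its levels depended on gene length. For each library, the log2 level relative to the mean of all libraries was regressed on log2 gene length. The slope was 0.281, 0.00184, -0.439 and 0.158 in the wild-type libraries and 0.156, -0.129, 0.124 and -0.0654 in the 5xFAD libraries. Choroid plexus RNA also varied between libraries, with Ttr, the transthyretin gene, at 302, 231, 51.2 and 9.59 CPM in wild-type and 16.6, 30.5, 15 and 615 CPM in 5xFAD. The groups overlapped in it. The cortical neuron markers Slc17a7, Neurod6, Tbr1, Emx1 and Gad1 summed to 719.7 to 1616 CPM in wild-type and 1026 to 1248 CPM in 5xFAD.

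Thy1, whose promoter drives the transgenes, was higher in every 5xFAD library. Its gene (ENSMUSG00000032011; GRCm38 chromosome 9, 44043384 to 44048579) had 839, 880.1, 787 and 736 CPM in wild-type and 1988, 1599, 1542 and 1667 CPM in 5xFAD, a log2 fold change of 1.07 ± 0.14 (SE; edgeR adjusted p = 0.00067). The lowest 5xFAD library lay above the highest wild-type library. Mouse App, the gene of the amyloid precursor protein, stood at 1670.2, 1346, 729 and 1516 CPM in wild-type and 1316, 966, 1257 and 1021 CPM in 5xFAD, with a log2 fold change of -0.20 ± 0.24 (edgeR adjusted p = 0.955), and the groups overlapped. Psen2, of the gamma-secretase complex, had a log2 fold change of 0.08 ± 0.14 and was not called. Prnp, the prion protein gene, had -0.09 ± 0.12 and was not called. Reads of the human transgenes were not analysed here. Whether transgene transcripts were counted at Thy1 was not tested, so its rise cannot be assigned to the mouse gene alone.

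The called differences between the groups ran almost wholly upward. Of the 17555 genes tested, 264 (1.5%) rose in 5xFAD and 2 (0.0114%) fell. At an unadjusted p under 0.05, 912 of the 17555 genes were higher and 335 lower. The list counts at that threshold below are to be read against these shares. Among the 264, 234 were at least 2-fold higher, 109 at least 4-fold and 17 at least 16-fold, and the median log2 fold change was 1.80, against -0.05 over all genes tested (quartiles -0.22 and 0.14). All 4 5xFAD libraries lay above all 4 wild-type libraries for 260 of the 264. Over all genes tested, 644 (3.67%) were higher without overlap and 267 (1.52%) lower. The 264 genes called higher summed to 7561, 7768, 8407 and 7724 CPM in the wild-type libraries and 21325, 18054, 22141 and 16862 CPM in the 5xFAD libraries. These genes were chosen for being higher in 5xFAD, so their median, lack of overlap and sums describe the choice and have no test. The count of genes that rose was 165, 169 and 287 when wild-type replicates 1, 2 and 3 were left out in turn. It was 115 in a fit of the 8 libraries alone and 700 (3.99%) when the slope entered the fit.

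**Figure D1:**
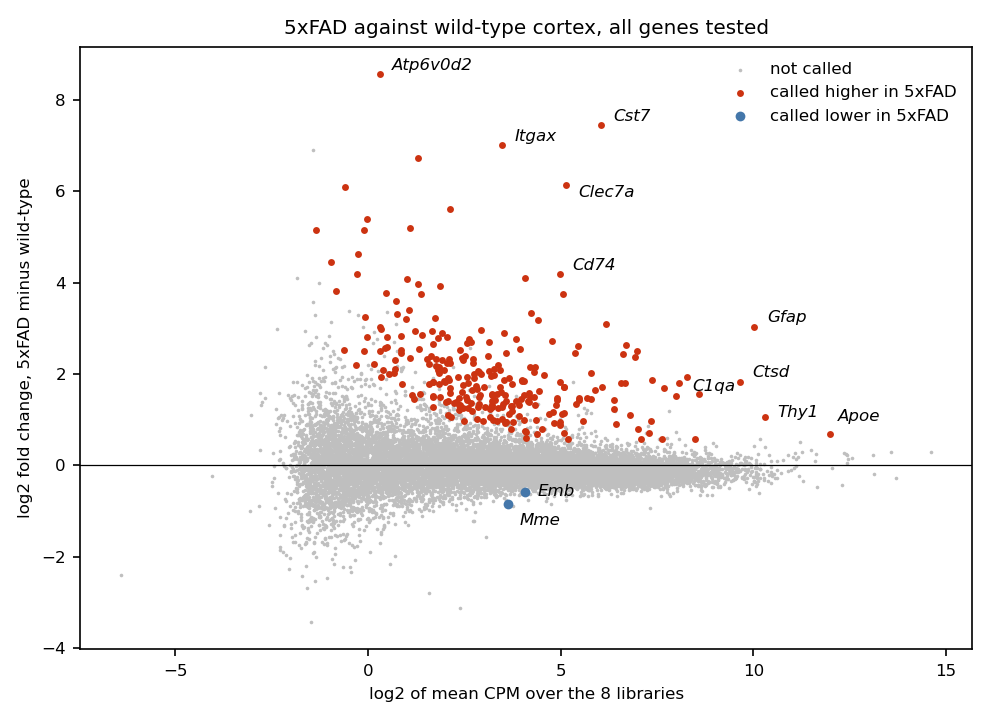
Each point is a gene, with the log2 of its mean CPM over the 8 libraries on the x axis and the log2 fold change of 5xFAD minus wild-type on the y axis. Red points are the 264 genes called higher and blue points the 2 called lower, Mme and Emb, by edgeR's adjusted p under 0.05. The genes called higher span low levels, such as Atp6v0d2, to the highest, such as Apoe.

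Of the 264 that rose, 55 stood under a mean of 1 CPM in wild-type cortex, and 29 reached 100 CPM or more in 5xFAD. Protein-coding genes made up 259 of the 266 called, of 14753 tested, and lncRNAs 3, of 1679 tested. The called genes with at most 3 counts over the 4 wild-type libraries numbered 7, and were chosen for naming after their values were seen. Their wild-type counts alone would not have passed the filter on low counts. A fall could not have been seen among them, so their ratios and intervals are descriptions and not tests. Wild-type counts alone would also have failed the filter for several genes named below. They include Cst7, Itgax, Clec7a, Ccl3, Treml2, Cybb, Ch25h, Cxcl10, Cd22, Ifi204 and Siglecf. For these a fall could hardly have been seen either, so their values describe a rise and do not test its direction. Atp6v0d2, a subunit of the vacuolar proton pump, had 0 counts in wild-type and 212 in 5xFAD (16 to 100 per library), at least 60.3-fold higher with a floor of 3 counts over the group. Hcar2, a receptor for ketone bodies and niacin, had 3 and 416 counts, or 118 times the wild-type rate (95% interval 40.2 to 576 by an exact Poisson test, which covers counting error alone). The ratio was 46.9 (15.8 to 230) for Tnfsf8, a ligand of the tumour necrosis factor family, and 45.2 (15.2 to 222) for Gpr65, a proton-sensing receptor. Ctse, an aspartic protease, went from 1 count to 112, Mmp12, a macrophage elastase, from 3 to 87, and Tgm1, a transglutaminase, from 1 to 67.

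Genes of plaque-associated microglia were among the largest single rises. Of 34 members tested, 19 rose and 0 fell, and the median log2 fold change of the list was 1.98. Like all lists here, it was chosen with earlier results of these data known. Some members, Cst7 and Itgax among them, had too few wild-type counts to show a fall. Its counts are therefore descriptions. Cst7, a cystatin that inhibits cathepsins (ENSMUSG00000068129; chromosome 2, 150570415 to 150578944), had 0.353, 0.258, 1.51 and 0.893 CPM in wild-type and 149, 143, 166 and 64.2 CPM in 5xFAD. Wild-type libraries held almost none of it, and 5xFAD replicate 4 held less than each of the other 5xFAD libraries. The log2 fold change was 7.46 ± 0.63 (edgeR adjusted p = 5.01e-05), and Cst7 was the gene of smallest p in the comparison. Itgax, the integrin CD11c, stood at 0.176, 0.103, 0 and 0.282 CPM in wild-type and 31, 16.9, 34.2 and 6.89 CPM in 5xFAD (log2 fold change 7.01 ± 0.65), and its female 5xFAD libraries were the highest. Clec7a, the beta-glucan receptor dectin-1, stood at 0.235, 0.362, 2.23 and 1.27 CPM in wild-type and 55.5, 66.4, 87 and 67.2 CPM in 5xFAD (6.14 ± 0.64) and was nearly even over the 5xFAD libraries. Ccl3, a chemokine, had 0.294, 0.207, 0 and 0.188 CPM in wild-type and 10.3, 11.7, 7.51 and 4.83 CPM in 5xFAD (5.62 ± 0.65). Gpnmb, a lysosomal glycoprotein of macrophages, had 4.52, 4.03, 1.03 and 4.28 CPM in wild-type and 67.5, 30.6, 48.8 and 9.04 CPM in 5xFAD, with a log2 fold change of 3.19 ± 0.64 (edgeR adjusted p = 0.0158). Its level in 5xFAD replicate 4 was the lowest of that group and still above every wild-type library.

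**Figure D2:**
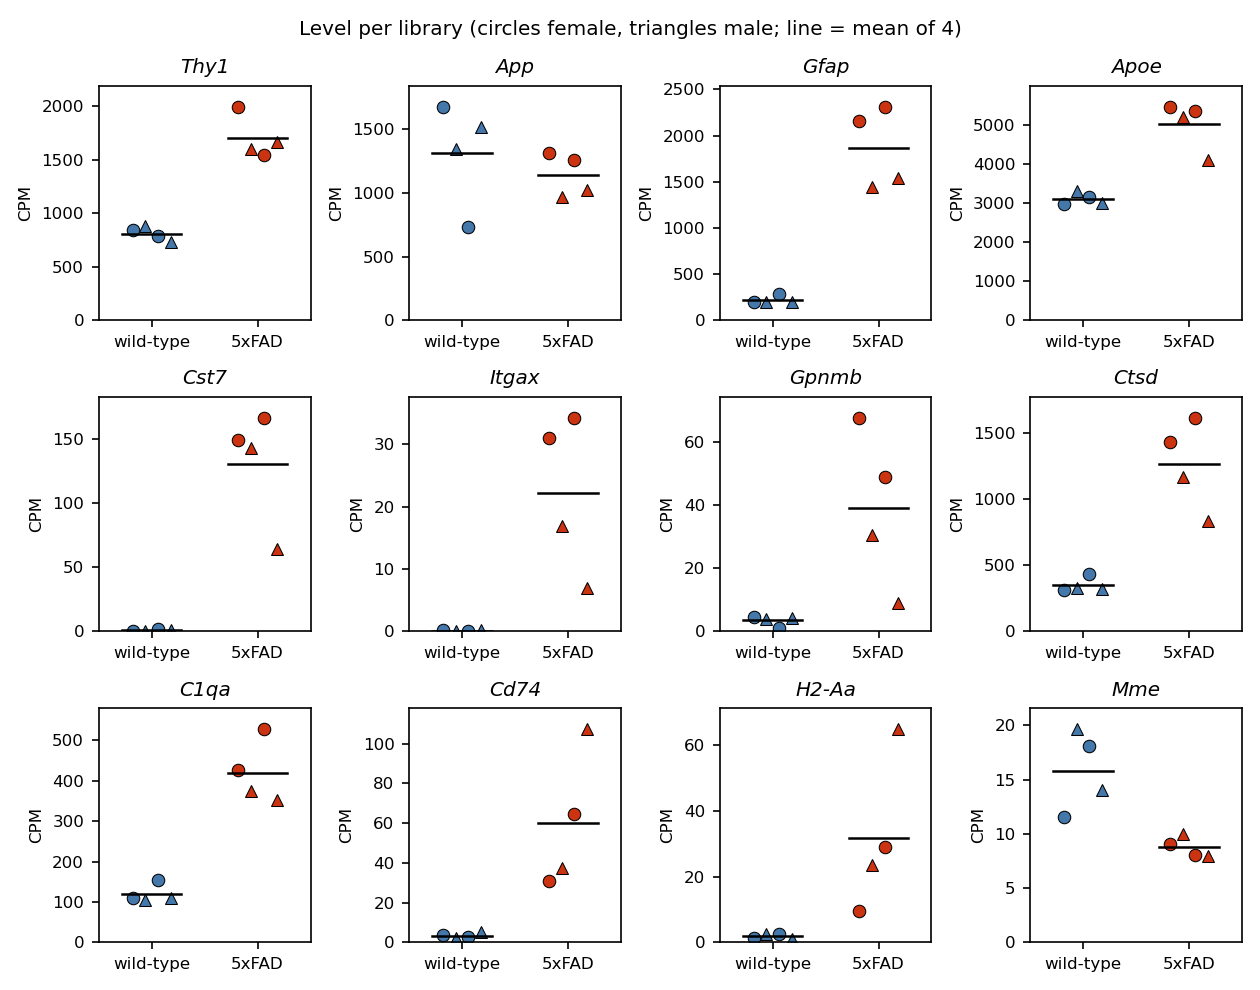
Each panel shows a gene's CPM in the 4 wild-type and the 4 5xFAD libraries (circles female, triangles male), with the mean of 4 as a line and a y axis from 0. The groups do not overlap for any gene shown except App. 5xFAD replicate 4, a male, is the lowest of its group for Cst7, Itgax, Gpnmb, Ctsd and C1qa and the highest for Cd74 and H2-Aa.

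Pan-myeloid genes, which microglia share with other macrophages, rose almost as a whole, at 15 of 16 tested with a median log2 fold change of 1.72. The complement subunit gene C1qc had 67.5, 62.3, 75 and 76 CPM in wild-type and 270.3, 217, 315 and 239.7 CPM in 5xFAD (1.88 ± 0.18; edgeR adjusted p = 7.56e-05), and C1qa had 109, 106, 155 and 109.6 CPM in wild-type and 427, 374, 527 and 353 CPM in 5xFAD (1.80 ± 0.17). Both were separated without overlap. Ctss, the cathepsin of the antigen-processing compartment, had 126, 117, 143 and 129 CPM in wild-type and 513, 419, 572 and 460.2 CPM in 5xFAD (1.93 ± 0.19). The microglial markers P2ry12, Tmem119, Cx3cr1 and Csf1r together summed to 154 to 212 CPM in wild-type and 312 to 474 CPM in 5xFAD, and 2 of the 4 rose. The part that cell number played in the other counts was not tested. The promoter of C1qc is shown for its match to a motif of PU.1, the myeloid transcription factor encoded by Spi1, searched as GAGGAAGT on both strands in the 250 bases before the RefSeq start. Its reverse complement is in capitals (RefSeq, GRCm38.p6, minus strand, chr4:136893062-136893149).
C1qc: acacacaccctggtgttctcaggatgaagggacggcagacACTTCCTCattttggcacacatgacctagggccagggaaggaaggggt
The motif lay in 341 of 12556 windows of tested genes (2.72%), in 14 of 200 windows of genes that rose (7.0%) and in 1 of 12 of the pan-myeloid list. A match is a description of the letters and not a site.

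Homeostatic microglial genes, which resting microglia express, rose in part. Of 24 tested, 7 rose and 0 fell, with a median log2 fold change of 0.92, and 20 lay above 0. Cx3cr1, the fractalkine receptor, had 53.7, 42.3, 38.1 and 61 CPM in wild-type and 136, 107, 139 and 87.9 CPM in 5xFAD (1.23 ± 0.23; edgeR adjusted p = 0.0091), and Siglech, a sialic acid-binding lectin, had 13.7, 14.9, 21.2 and 19.3 CPM in wild-type and 37.9, 35.4, 45 and 36.6 CPM in 5xFAD (1.16 ± 0.19). P2ry12, a purine receptor, had 51.1, 57.4, 75.6 and 59.7 CPM in wild-type and 98.5, 133, 122 and 99.1 CPM in 5xFAD (0.89 ± 0.21; edgeR adjusted p = 0.0424), a call kept in 6 of 16 fits that left out 1 library. Tmem119 (log2 fold change 0.79 ± 0.22; edgeR adjusted p = 0.122) and Csf1r (1.19 ± 0.36; adjusted p = 0.188) were not called. Without wild-type replicate 2 or without 5xFAD replicate 3, 4 members of the list rose.

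The lists of microglial receptors and signalling genes differed in their share of calls. In the list of Trem2 signalling and Alzheimer risk genes 6 of 24 rose, with a median of 1.17. Trem2 itself, a lipid-sensing receptor, had 17.8, 22.9, 47.1 and 28.2 CPM in wild-type and 179.9, 189, 213 and 137 CPM in 5xFAD (2.64 ± 0.31; edgeR adjusted p = 0.000342), and its adaptor Tyrobp had 21.2, 28.9, 77.2 and 33.5 CPM in wild-type and 173, 219, 242 and 176 CPM in 5xFAD (2.38 ± 0.35). Wild-type replicate 3 held the highest wild-type level of both. Treml2, a relative of Trem2, rose by 3.40 ± 0.56 on the log2 scale. Of 8 Fc receptors, which bind antibody, 6 rose (median 1.66), among them the inhibitory Fcgr2b at 3.17, 2.58, 3.44 and 4.98 CPM in wild-type and 24.1, 16.6, 23.4 and 16.7 CPM in 5xFAD (2.47 ± 0.28), the common chain Fcer1g (1.71 ± 0.21) and the high-affinity receptor Fcgr1 (1.86 ± 0.28). Phagocytic and scavenger receptors had 4 of 22 higher (median 0.78), with Cd68, a macrophage endosomal protein, at 13.4, 11.4, 11 and 12.2 CPM in wild-type and 101, 68.1, 89.2 and 45 CPM in 5xFAD (2.60 ± 0.26). Tlr2, a receptor of lipoproteins, rose by 2.77 ± 0.37, Itgb2, the beta chain of leukocyte integrins, by 2.14 ± 0.28, and Cd14, a lipopolysaccharide co-receptor, by 2.06 ± 0.30.

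The NADPH oxidase, which makes superoxide in phagocytes, had 4 of 7 genes higher, with a median of 1.40. In a fit of the 8 libraries alone, 1 of the 7 rose. Its catalytic chain Cybb had 0.411, 0.155, 0 and 0.752 CPM in wild-type and 6.29, 2.96, 4.8 and 5.53 CPM in 5xFAD (3.75 ± 0.65; edgeR adjusted p = 0.00563). The partner chain Cyba rose by 1.72 ± 0.34 and the GTPase Rac2 by 1.40 ± 0.26. Inflammasome and interleukin 1 genes had 0 of 13 called by edgeR, with 5 at an unadjusted p under 0.05, 1 called by DESeq2 and a median of 0.78. Without wild-type replicate 3, 2 of them rose. Pycard, the inflammasome adaptor, had 4.23, 6.51, 13.6 and 6.11 CPM in wild-type and 16.1, 19.3, 17.2 and 21.4 CPM in 5xFAD (edgeR adjusted p = 0.132). The list does not cover every inflammasome gene. Naip2, an inflammasome sensor outside it, was called higher (2.23 ± 0.25; edgeR adjusted p = 0.000208).

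Among myeloid transcription factors 6 of 23 rose, with a median of 0.40. Irf8, a factor of macrophage identity, had 7.05, 9.3, 5.49 and 8.74 CPM in wild-type and 41, 30.4, 26.8 and 30.6 CPM in 5xFAD (2.05 ± 0.26; edgeR adjusted p = 0.000515), Spi1 had 5.94, 3.82, 4.65 and 4.42 CPM in wild-type and 16.8, 14.3, 12 and 11.9 CPM in 5xFAD (1.56 ± 0.23) and Cebpa rose by 1.32 ± 0.26. Without wild-type replicate 1, wild-type replicate 2, 5xFAD replicate 1 or 5xFAD replicate 4, 3 of the list rose. Growth factors and their receptors had 4 of 13 higher (median 1.12), and 2 without wild-type replicate 2 or without 5xFAD replicate 3. Igf1, an insulin-like growth factor, had 5.23, 4.96, 5.61 and 5.64 CPM in wild-type and 17.7, 16.1, 21.2 and 11.4 CPM in 5xFAD (1.60 ± 0.20), and Csf3r, the receptor of granulocyte colony-stimulating factor, had 4.88, 3.2, 3.08 and 2.96 CPM in wild-type and 25.5, 8.04, 16.3 and 9.17 CPM in 5xFAD (1.95 ± 0.30). Cell cycle genes had 0 of 21 called by edgeR, 4 at an unadjusted p under 0.05 and 1 by DESeq2, with a median of 0.58. Without wild-type replicate 3, 1 cell cycle gene rose. Top2a, the topoisomerase of dividing cells, had 0.764, 0.569, 0.121 and 0.423 CPM in wild-type and 2.1, 1.53, 2.14 and 1.05 CPM in 5xFAD (edgeR adjusted p = 0.287).

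Lysosomal genes rose in part. Of 52 hydrolases and membrane proteins, 14 rose and 0 fell, and the median log2 fold change was 0.35, with 44 above 0. Ctsd, the aspartic cathepsin, had 314, 332, 433 and 320.2 CPM in wild-type and 1436, 1174, 1615 and 838 CPM in 5xFAD (1.83 ± 0.21; edgeR adjusted p = 0.000235). Gusb, the beta-glucuronidase, had 14, 14.3, 19.7 and 14.9 CPM in wild-type and 51.6, 41.1, 55.7 and 29.8 CPM in 5xFAD (1.48 ± 0.19), and Lgmn, asparaginyl endopeptidase, had 152, 149, 166 and 165 CPM in wild-type and 251, 212, 272 and 218 CPM in 5xFAD (0.58 ± 0.13), a call kept in 8 of 16 fits that left out 1 library. The promoter of Ctsd is shown because it holds the CLEAR motif, the element of coordinated lysosomal expression, searched as TCACGTGA, which reads the same on both strands. The motif is in capitals (RefSeq, GRCm38.p6, minus strand, chr7:142387879-142387966).
Ctsd: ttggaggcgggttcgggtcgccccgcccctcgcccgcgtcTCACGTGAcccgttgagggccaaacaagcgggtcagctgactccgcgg
It lay in 6 of 41 windows of the lysosomal list (14.6%), in 198 of 12556 windows of tested genes (1.58%) and in 3 of 200 windows of genes that rose (1.5%).

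The other organelle and metabolic lists held few calls. The vacuolar proton pump had 1 of 18 genes called, Atp6v0d2, and 15 of the 18 lay below 0, with a median of -0.27. Autophagy genes had 0 of 23 called by edgeR and by DESeq2 and 1 at an unadjusted p under 0.05, with a median of -0.04. Lipid and cholesterol transport had 4 of 27 higher (median 0.13). Lpl, lipoprotein lipase, had 19.4, 23.2, 21.1 and 21.2 CPM in wild-type and 44.8, 52.9, 49.6 and 39.6 CPM in 5xFAD (1.14 ± 0.19; edgeR adjusted p = 0.00452), Ch25h, cholesterol 25-hydroxylase, rose by 3.21 ± 0.69 and Mylip, a ligase that degrades the LDL receptor, by 0.74 ± 0.16. Apoe, the main lipid carrier of the brain, had 2965, 3303, 3154 and 3006 CPM in wild-type and 5449.5, 5191, 5348 and 4109.5 CPM in 5xFAD (0.69 ± 0.16; edgeR adjusted p = 0.0476). The groups did not overlap for Apoe, and the call was kept in 2 of 16 fits that left out 1 library. Of the lipid list, 1 gene rose when wild-type replicate 1, wild-type replicate 2 or 5xFAD replicate 2 was left out, and 2 without 5xFAD replicate 1 or 5xFAD replicate 3. Cholesterol synthesis had 0 of 22 called by edgeR and by DESeq2 and 1 at an unadjusted p under 0.05. In the iron and haem list 1 of 13 rose, Slc11a1, a phagosomal metal transporter, at 2.64, 2.64, 3.26 and 2.26 CPM in wild-type and 19.6, 12.9, 17.7 and 8.25 CPM in 5xFAD (2.39 ± 0.28). Among antioxidant genes 1 of 20 rose, Prdx6, a peroxiredoxin (0.57 ± 0.13; edgeR adjusted p = 0.0445), and among glycolysis and hypoxia genes 1 of 24, the hexokinase Hk3 (1.56 ± 0.37; adjusted p = 0.0481). These 2 calls were kept in 3 and 2 of 16 fits that left out 1 library.

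MHC class II genes, which present antigen to CD4 T cells, had the highest median of any list. Of 9 tested, 7 rose, all 9 were higher without overlap, and the median log2 fold change was 2.90. H2-Aa had 1.23, 2.58, 2.66 and 1.08 CPM in wild-type and 9.57, 23.5, 28.9 and 64.8 CPM in 5xFAD (4.10 ± 0.61; edgeR adjusted p = 0.00181), H2-Ab1 had 2.06, 3.51, 5.43 and 2.82 CPM in wild-type and 12.7, 28.1, 29.4 and 65 CPM in 5xFAD (3.33 ± 0.51) and the invariant chain Cd74 had 3.64, 2.12, 2.47 and 5.07 CPM in wild-type and 31, 37.3, 64.6 and 107 CPM in 5xFAD (4.18 ± 0.54). All 3 were highest in 5xFAD replicate 4, the library that was lowest for Cst7, Itgax and Gpnmb, and lowest among the 5xFAD libraries in replicate 1. H2-DMb1, a peptide-exchange chain, had 2.59, 2.27, 2.96 and 2.4 CPM in wild-type and 6.53, 7.89, 10.1 and 9.79 CPM in 5xFAD (1.75 ± 0.25) and was highest in 5xFAD replicate 3. MHC class I and peptide loading genes had 7 of 21 higher (median 1.41), with the light chain B2m at 147, 123, 134 and 117 CPM in wild-type and 427, 277, 420.3 and 382 CPM in 5xFAD (1.52 ± 0.15; edgeR adjusted p = 7.98e-05), H2-D1 at 47.7, 39.8, 37.1 and 54 CPM in wild-type and 168, 95.9, 185 and 183 CPM in 5xFAD (1.80 ± 0.24) and the peptide transporter Tap1 at 1.53, 1.03, 0.724 and 2.4 CPM in wild-type and 5.86, 4.54, 7.77 and 10.7 CPM in 5xFAD (2.33 ± 0.39). In a fit of the 8 libraries alone, 2 of the 21 class I and peptide loading genes rose. H2 genes have near-identical copies, so their counts are uncertain. A promoter of each class is shown for its Y box, an element of MHC promoters, searched as CTGATTGG on both strands, with the match in capitals (RefSeq, GRCm38.p6; H2-Aa minus strand, chr17:34287827-34287914, as written; H2-D1 plus strand, chr17:35263001-35263088, reverse complement).
H2-Aa: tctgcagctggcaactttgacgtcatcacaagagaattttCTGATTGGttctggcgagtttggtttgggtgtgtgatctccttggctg
H2-D1: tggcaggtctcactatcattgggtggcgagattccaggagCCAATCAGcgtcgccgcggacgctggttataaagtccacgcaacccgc
The Y box lay in 3 of 7 class II windows (42.9%), 6 of 17 class I windows (35.3%), 776 of 12556 windows of tested genes (6.18%) and 12 of 200 windows of genes that rose (6.0%).

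Interferon-stimulated genes rose in number. Of 41 tested, 23 rose, 41 lay above 0, and the median was 1.53. The count was 15 without wild-type replicate 1 or 5xFAD replicate 1 and 14 without wild-type replicate 2 or 5xFAD replicate 4. In a fit of the 8 libraries alone, 7 of the 41 rose. Lgals3bp, a secreted glycoprotein, had 15.5, 10.9, 7.91 and 14 CPM in wild-type and 92.6, 40.1, 84.8 and 62.9 CPM in 5xFAD (2.47 ± 0.26; edgeR adjusted p = 0.000157), and Irf7, a factor that amplifies interferon responses, had 3.17, 2.53, 2.54 and 2.87 CPM in wild-type and 19.1, 6.07, 9.95 and 12.4 CPM in 5xFAD (2.04 ± 0.30). Oasl2, of the oligoadenylate synthetase family, had 2.59, 0.879, 1.21 and 2.07 CPM in wild-type and 23.3, 3.6, 11.2 and 16.5 CPM in 5xFAD (2.97 ± 0.49). 5xFAD replicate 2 was the lowest of the 5xFAD libraries for all 3. Irf9, a subunit of the interferon-activated factor, rose by 1.53 ± 0.21. Trim30a, an interferon-induced ubiquitin ligase, had 2.35, 2.02, 3.62 and 3.29 CPM in wild-type and 14.1, 7.94, 9.65 and 11.2 CPM in 5xFAD (1.91 ± 0.27). Its promoter is shown for the interferon-stimulated response element, searched on both strands as GAAA, any 2 bases and GAAA, with the reverse complement in capitals (RefSeq, GRCm38.p6, minus strand, chr7:104465194-104465269).
Trim30a: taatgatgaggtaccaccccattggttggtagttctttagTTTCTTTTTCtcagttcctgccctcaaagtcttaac
This element lay in 12 of 29 windows of the interferon list (41.4%), 26 of 200 windows of genes that rose (13%) and 398 of 12556 windows of tested genes (3.17%).

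Complement genes had 9 of 23 higher and 0 lower, with a median of 1.02. The 9 include C1qa, C1qb and C1qc, also in the pan-myeloid list, and Itgax, also in the plaque-associated list. C4b, of the classical pathway, had 18, 14, 7.48 and 16 CPM in wild-type and 189.5, 62.5, 173 and 102 CPM in 5xFAD (3.10 ± 0.41; edgeR adjusted p = 0.000723). Both 5xFAD females were above both 5xFAD males. C4b has a near-identical copy, so its counts are uncertain. The list of inflammatory cytokines and chemokines had 5 of 23 higher (median 0.48), including Cxcl10, an interferon-induced chemokine, at 0.47, 0.207, 0.423 and 0.188 CPM in wild-type and 4.67, 1.92, 2.71 and 2.85 CPM in 5xFAD (3.30 ± 0.51; edgeR adjusted p = 0.00209), and Cxcl16 at 2.0, 1.76, 4.83 and 1.69 CPM in wild-type and 10.2, 6.9, 9.78 and 10.4 CPM in 5xFAD (1.94 ± 0.34). The 5 also include the receptor Tlr2, counted with the phagocytic receptors too, and Ccl3, counted with the plaque-associated genes too. Ccl6, a chemokine of macrophages, was among the largest rises at 2.47, 3.15, 6.82 and 6.16 CPM in wild-type and 39.3, 78.9, 80.4 and 50.8 CPM in 5xFAD (3.75 ± 0.52).

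**Figure D3:**
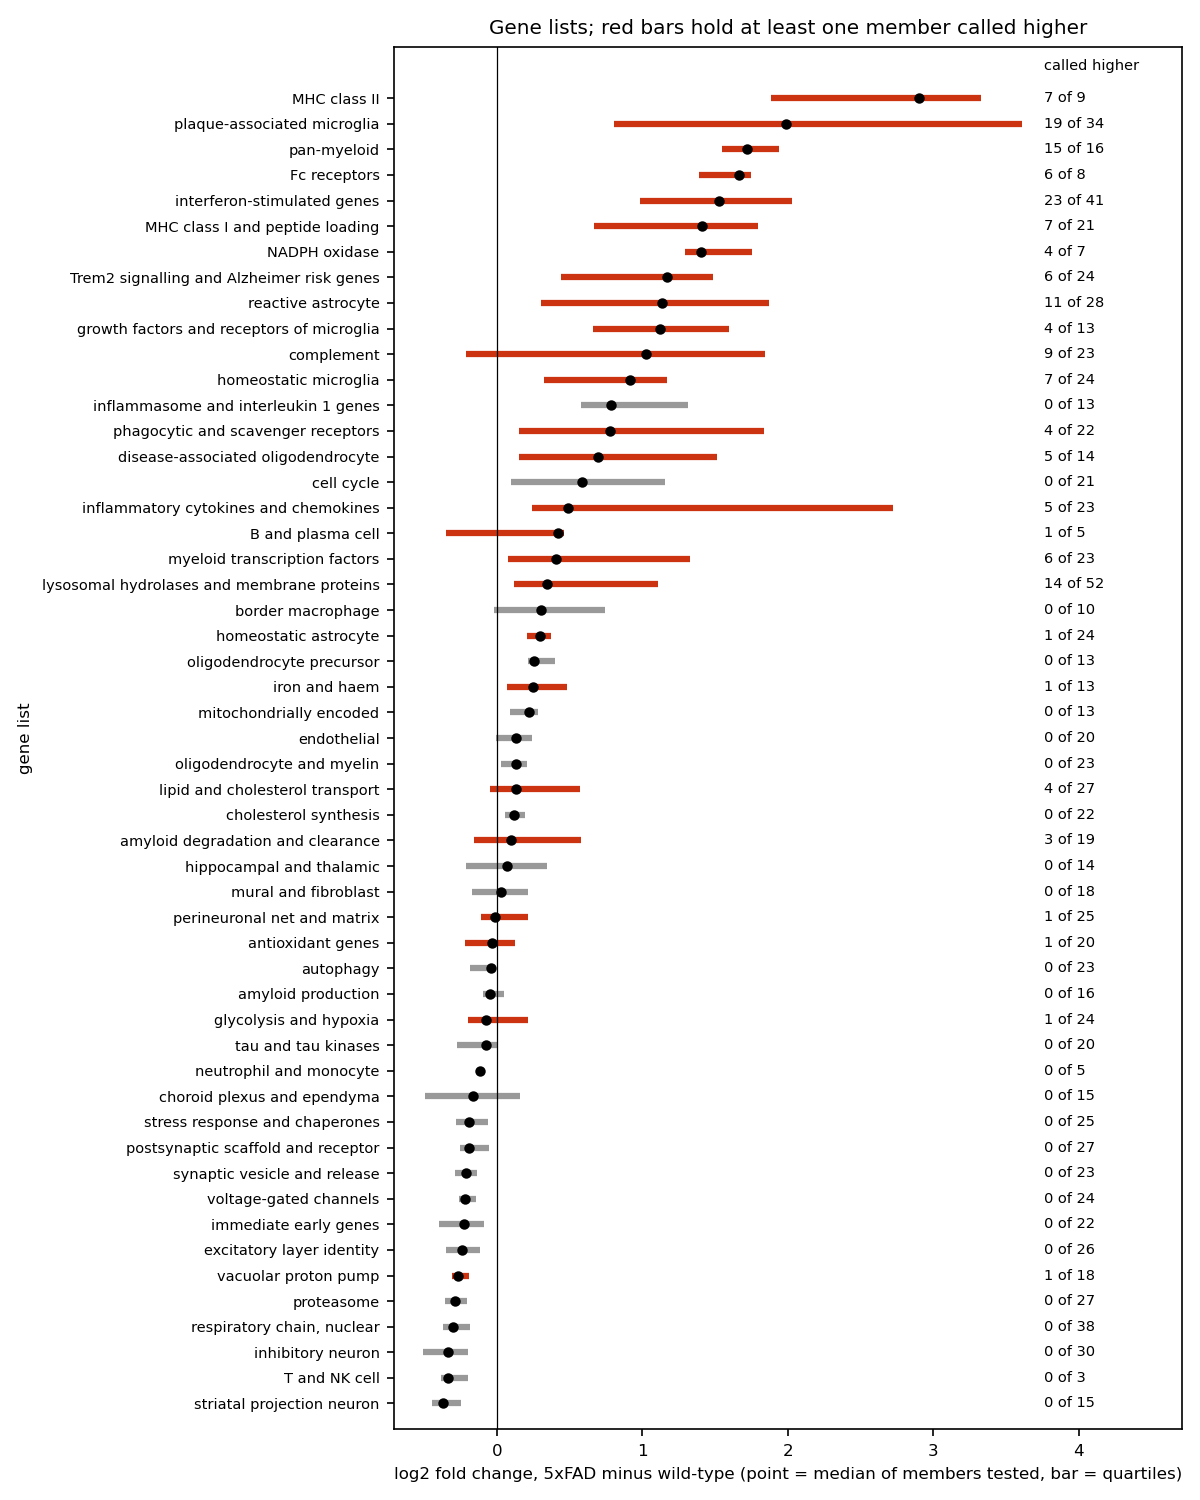
Each line is a gene list, with the median log2 fold change of its tested members (5xFAD minus wild-type) as a point and the quartiles as a bar. The number of members called higher of those tested stands at the right, and red bars mark lists with at least 1 such member. MHC class II and plaque-associated microglia lie at the top, and the lists of neurons and synapses lie near or below 0 with no member called.

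Reactive astrocyte genes had 11 of 28 higher and 0 lower, with a median of 1.13. Gfap, the intermediate filament of astrocytes (ENSMUSG00000020932; chromosome 11, 102887336 to 102900912), had 198, 197, 289.8 and 203 CPM in wild-type and 2161, 1448, 2307 and 1536 CPM in 5xFAD (3.04 ± 0.26; edgeR adjusted p = 5.01e-05). The female 5xFAD libraries were above the male ones. Serpina3n, a protease inhibitor, had 7.46, 6.82, 4.83 and 7.66 CPM in wild-type and 68.8, 29.3, 63.6 and 29.3 CPM in 5xFAD (2.73 ± 0.29), and Aspg, an asparaginase, had 1.59, 0.879, 1.27 and 1.46 CPM in wild-type and 6.38, 4.44, 7.29 and 5.22 CPM in 5xFAD (2.15 ± 0.28). Homeostatic astrocyte genes had 1 of 24 called, the water channel Aqp4, at 144, 104, 104 and 118 CPM in wild-type and 215, 154, 245 and 162 CPM in 5xFAD (0.70 ± 0.17; edgeR adjusted p = 0.0459), a call kept in 2 of 16 fits that left out 1 library. Their median was 0.29 and all 24 lay above 0. The disease-associated oligodendrocyte list had 5 of 14 higher (median 0.69). Its leading members Serpina3n, C4b, B2m and H2-D1 are also members of the astrocyte, complement or MHC lists.

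Other glia and vessel lists held no call. Oligodendrocyte and myelin genes had 0 of 23 called by edgeR, 0 by DESeq2 and 0 at an unadjusted p under 0.05, with Mbp, myelin basic protein, at 4728, 4547, 4656 and 5198 CPM in wild-type and 6446, 5809, 6182 and 4587 CPM in 5xFAD. Precursors of oligodendrocytes had 0 of 13 called by edgeR and by DESeq2 and 1 at an unadjusted p under 0.05. For endothelial (20 genes) and mural and fibroblast genes (18) edgeR called 0, DESeq2 0, and 0 had an unadjusted p under 0.05. Most genes of blood-derived immune cells did not pass the filter on low counts, which left 3 of 18 in the T and NK cell list and 5 of 14 in the neutrophil and monocyte list. In both lists 0 were called by edgeR and by DESeq2, with 0 and 1 at an unadjusted p under 0.05. T cell markers Cd3e, Cd3d, Cd8a and Trac summed to 0.376 to 0.940 CPM in wild-type and 0.148 to 1.40 CPM in 5xFAD. Other members of that list were higher in level, with Trbc2, a T cell receptor constant region, at 12.2, 14.2, 32 and 24.5 CPM in wild-type and 11.4, 18.6, 15.3 and 16 CPM in 5xFAD and Cd4, a T cell co-receptor, at 15.9, 20.2, 7.3 and 16.4 CPM in wild-type and 13.6, 15.4, 6.2 and 11.6 CPM in 5xFAD. The groups overlapped in both. Neutrophil markers summed to 1.75 to 2.58 CPM in wild-type and 0.381 to 4.04 CPM in 5xFAD, and monocyte markers to 0.282 to 1.27 and 1.04 to 1.40 CPM. The monocyte marker Ly6c2 had 1, 1, 0 and 3 counts in wild-type and 18, 10, 11 and 11 counts in 5xFAD, without overlap and not called (2.94 ± 0.84; edgeR adjusted p = 0.136). Its value is uncertain, since Ly6c1 is a near-identical copy with which it can share reads. Border macrophage markers summed to 3.05 to 4.77 CPM in wild-type and 4.78 to 6.68 CPM in 5xFAD, and 0 of the 10 genes of that list were called by edgeR, by DESeq2 or at an unadjusted p under 0.05. Of the B and plasma cell list 1 of 5 rose, Cd22, a lectin that microglia can also express, at 0.118, 0, 0.121 and 0.658 CPM in wild-type and 3.95, 1.53, 4.98 and 1.93 CPM in 5xFAD (3.60 ± 0.78; edgeR adjusted p = 0.0279), kept in 11 of 16 fits that left out 1 library.

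The 2 genes that fell were Mme and Emb. Mme encodes neprilysin, a peptidase that degrades amyloid beta (ENSMUSG00000027820; chromosome 3, 63241537 to 63386030), and had 11.5, 19.6, 18.1 and 14 CPM in wild-type and 9.05, 10.01, 8.03 and 7.95 CPM in 5xFAD (log2 fold change -0.85 ± 0.20; edgeR adjusted p = 0.0424). Emb, embigin, a chaperone of monocarboxylate transporters, had 21.6, 21.4, 19.7 and 18.1 CPM in wild-type and 13.8, 11.7, 13.9 and 14.4 CPM in 5xFAD (-0.59 ± 0.14; edgeR adjusted p = 0.044). In both genes every 5xFAD library lay below every wild-type library. The calls were kept in 4 and 2 of 16 fits that left out 1 library. Among the libraries compared, 0 genes were called lower without wild-type replicate 2 or without 5xFAD replicates 1, 3 or 4 in turn, 1 without 5xFAD replicate 2 and 3 without wild-type replicates 3 or 4 in turn. Of 19 genes of amyloid degradation and clearance, Mme fell and Ctsd, Plau and Apoe rose. Plau, urokinase, had 2.23, 3.2, 3.26 and 5.22 CPM in wild-type and 19.3, 18.1, 16.6 and 9.35 CPM in 5xFAD (2.12 ± 0.39). Amyloid production genes had 0 of 16 called by edgeR, 1 called by DESeq2 and 1 at an unadjusted p under 0.05. The smallest p was that of Adam17, a sheddase, at 11.1, 9.3, 8.51 and 11.1 CPM in wild-type and 18.2, 14.3, 17.9 and 12.2 CPM in 5xFAD (edgeR adjusted p = 0.111).

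Neuronal and synaptic lists held no gene called by edgeR, and most of their members lay slightly below 0, as did 58.8% of all genes tested. In several of these lists the median had a different sign in each sex, a difference that was not tested for the lists. It was 0.09 in females and -0.37 in males for synaptic vesicle genes, 0.01 and -0.35 for postsynaptic genes, 0.04 and -0.47 for immediate early genes and 0.16 and -0.60 for voltage-gated channels. On the Dp16 background the medians were 0.05, 0.10, -0.12 and 0.11 in the same order, and 0.10 for excitatory layer genes. Inhibitory neuron genes had 27 of 30 below 0, a median of -0.34, 5 at an unadjusted p under 0.05 and 0 called by edgeR or DESeq2. At that unadjusted threshold, 335 of the 17555 genes tested were lower and 912 higher. Sst, somatostatin, had 370.1, 506, 618 and 390.1 CPM in wild-type and 257, 411, 197 and 369 CPM in 5xFAD (-0.64 ± 0.22; edgeR adjusted p = 0.339). Gad1, an enzyme of GABA synthesis, had 281, 277, 207 and 302 CPM in wild-type and 206, 223, 195 and 213 CPM in 5xFAD (-0.35 ± 0.14; adjusted p = 0.527). Excitatory layer genes had a median of -0.24, 0 of 26 called by edgeR, 3 at an unadjusted p under 0.05 and 2 called lower by DESeq2. The smallest p was that of Ccn2, a matrix protein of deep-layer neurons, at 44.5, 40.3, 53.5 and 38.1 CPM in wild-type and 24.1, 31.3, 23.4 and 25.9 CPM in 5xFAD (-0.76 ± 0.19; edgeR adjusted p = 0.0703). Synaptic vesicle genes (23, median -0.22) and postsynaptic genes (27, median -0.19) had 0 called by edgeR or DESeq2 and 1 and 3 at an unadjusted p under 0.05. Immediate early genes (22, median -0.23) had 0 called by both and 3 at an unadjusted p under 0.05. Nuclear respiratory chain genes lay below 0 in 38 of 38 (median -0.31), and proteasome genes in 27 of 27 (median -0.29). In both lists edgeR and DESeq2 called 0, and 0 had an unadjusted p under 0.05. The median was -0.85 in females and 0.22 in males for the respiratory chain, and -0.83 and 0.23 for the proteasome. With the length slope in the fit, the medians over both sexes were -0.16 and -0.14. Members of a list were read in the same libraries, so their directions are not independent. Wild-type replicate 3, a female with the lowest length slope, had the highest level of Cox5a, at 152, 193, 344 and 192 CPM in wild-type and 150.3, 191, 161 and 186 CPM in 5xFAD. When the slope entered the fit, 226 genes (1.29%) were called lower over all genes tested, 6 of the 30 inhibitory neuron genes among them. That fit called 1 inhibitory neuron gene higher. Of the 26 excitatory layer genes it called 3 lower and 0 higher, and of the 23 synaptic vesicle genes 2 lower and 1 higher.

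Of the 266 called genes, 128 were in a list and 138 in none. Among the latter, Rab7b, a GTPase of late endosomes, had 1.29, 0.62, 1.39 and 0.893 CPM in wild-type and 6.95, 6.71, 10.04 and 5.05 CPM in 5xFAD (2.81 ± 0.27; edgeR adjusted p = 7.79e-05), and Mpeg1, a pore-forming protein of macrophages, had 36.3, 36.1, 29 and 47.6 CPM in wild-type and 238, 173, 250.4 and 196 CPM in 5xFAD (2.50 ± 0.24). Both were separated without overlap. Ptpn6, the phosphatase SHP-1, had 3.88, 2.69, 4.59 and 6.53 CPM in wild-type and 31.2, 25.7, 24.3 and 24 CPM in 5xFAD (2.55 ± 0.31), and the log2 fold change was 1.82 ± 0.22 for Plek, 1.63 ± 0.21 for Cyth4 and 1.5 ± 0.21 for Nckap1l, a haematopoietic subunit of the actin-regulating WAVE complex. Naip2, an inflammasome sensor, rose by 2.23 ± 0.25, Tlr7, a sensor of single-stranded RNA, by 1.73 ± 0.26, and Ifi204, an interferon-inducible protein, by 3.93 ± 0.52. Siglecf, a sialic acid-binding lectin, had 0.411, 0.569, 1.15 and 0.47 CPM in wild-type and 5.19, 4.39, 5.33 and 3.6 CPM in 5xFAD (2.84 ± 0.41). Capg and Arpc1b, which act on actin, rose by 2.19 ± 0.31 and 1.35 ± 0.19, Tbxas1, thromboxane synthase, by 2.07 ± 0.28 and Slc14a1, a urea transporter, by 1.59 ± 0.22.

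The transgene effect was read in each sex from 2 against 2 libraries. Of the 264 genes that rose, 182 had the larger log2 fold change in females, with medians of 1.94 in females and 1.66 in males. Both 5xFAD females were above both 5xFAD males for 133 of the 264 (50.4%), and both males above both females for 6 (2.27%), against 29.3% and 30.1% of all genes tested. C4b rose by 3.83 in females and 2.46 in males, and Gpnmb by 4.38 and 2.25. H2-Aa ran the other way, at 3.31 in females and 4.60 in males. The test of the difference between the sexes called 0 of 17555 genes (0%) by edgeR and 0 by DESeq2, with 726 at an unadjusted p under 0.05, 17 of them among the 264, whose smallest adjusted p was 0.615. Without wild-type replicate 1, which left 1 wild-type female, replicate 3, it called 5491, and without any other single library 0. The 5xFAD females had positive length slopes and the 5xFAD males negative ones, and the part of this in the order of the libraries was not tested.

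**Figure D4:**
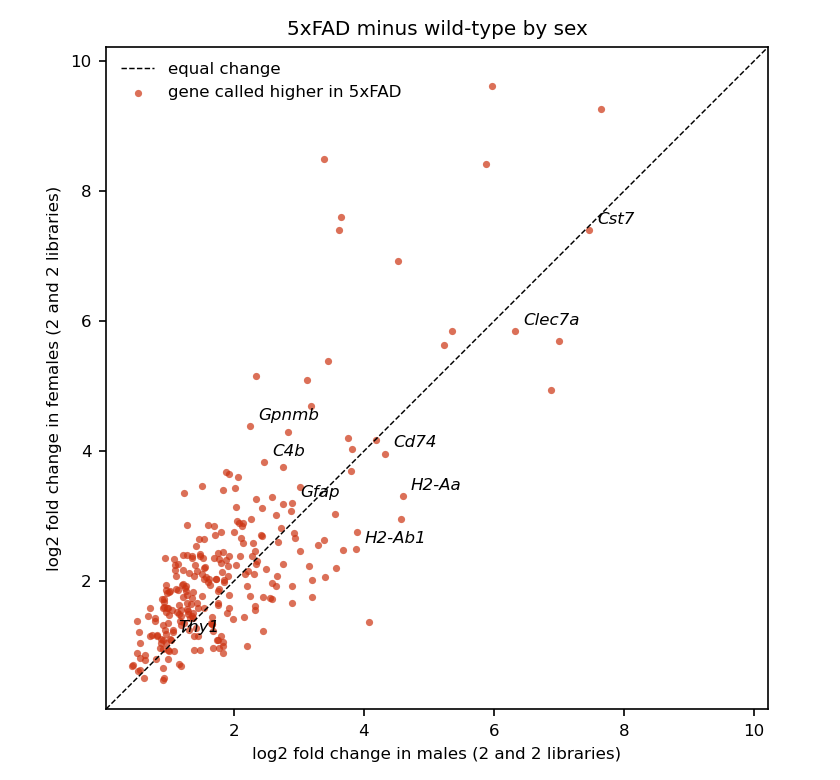
Each point is one of the 264 genes called higher in 5xFAD, with its log2 fold change (5xFAD minus wild-type) in males on the x axis and in females on the y axis, each from 2 against 2 libraries. The dashed line marks equal change. Of the 264, 182 lie above the line, Gpnmb and C4b among them, and H2-Aa and H2-Ab1 lie below it.

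The same transgenes on the Dp16 background gave a comparison with no shared libraries, 5xFAD-Dp16 against Dp16, 4 against 4. There 68 genes (0.387%) rose and 0 fell. Of the 264 genes that rose without Dp16, 263 were above 0 on the Dp16 background, against 51.2% of all genes tested, and the median log2 fold change was 1.19. The calls shared were 65, which is 24.6% of the 264 and 95.6% of the 68. Cst7 was nearly equal in both, at 7.46 ± 0.63 without and 7.09 ± 0.63 with Dp16, and Thy1 was 1.07 ± 0.14 and 1.18 ± 0.14. The values were smaller on the Dp16 background for 248 of the 264, among them H2-Aa (4.10 ± 0.61 and 1.37 ± 0.56), Rab7b (2.81 ± 0.27 and 0.95 ± 0.26) and Gfap (3.04 ± 0.26 and 2.00 ± 0.25). The genes were chosen for being high in the comparison without Dp16, so this count has no test. The test of the difference called 0 genes (0%) by edgeR and 3 by DESeq2, with 239 at an unadjusted p under 0.05, of which 54 were among the 264. Mme had -0.85 ± 0.20 without and -0.06 ± 0.19 with Dp16, and Emb -0.59 ± 0.14 and -0.04 ± 0.14.

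**Figure D5:**
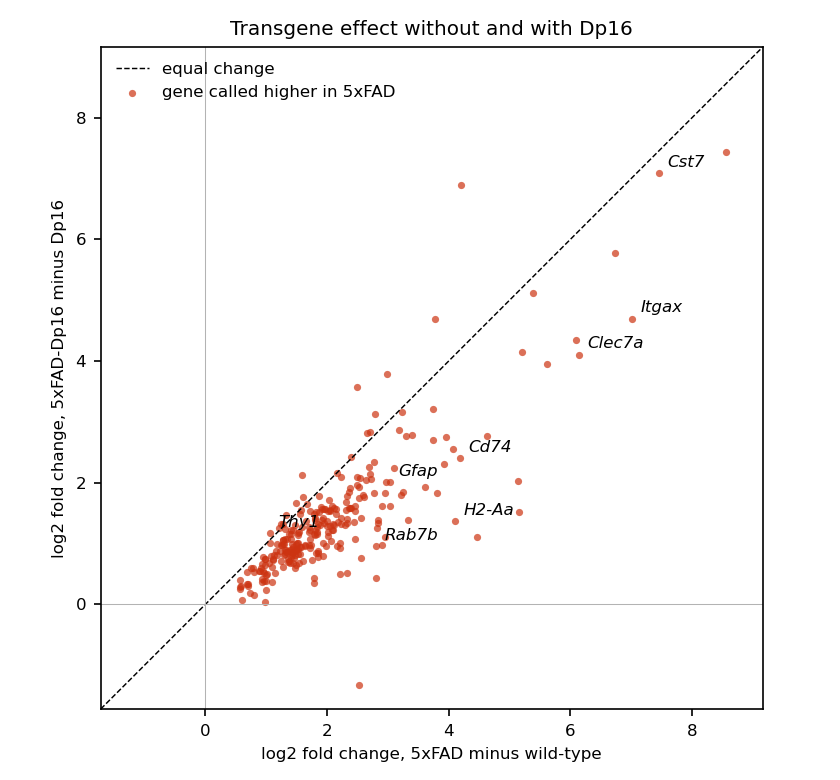
Each point is one of the 264 genes called higher in 5xFAD, with its log2 fold change against wild-type on the x axis and the log2 fold change of 5xFAD-Dp16 minus Dp16 on the y axis. The dashed line marks equal change, and 248 points lie below it. One gene lies below 0 on the y axis, and Cst7 and Thy1 lie near the line.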

How the data were processed

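Polyadenylated cortex RNA was sequenced as strand-specific paired-end libraries, per the labels' protocols. HISAT2 2.1.0, HTSeq 0.6.1, SAMtools 1.5, FastQC 0.11.5 and bcl2fastq were used on build GRCm38, per the submitters' processing notes, with the annotation GENCODE M24, per the title of the deposited tables. The strand setting of the counting was not given in these sources, so overlapping and antisense genes are uncertain. The authors deposited raw read counts per gene, without normalization, and RPKM values, which are the same counts rescaled by gene length and library total. The sex label matched the data in 16 of 16 libraries. Gene coordinates come from GENCODE M21 (GRCm38), which lacked 241 genes.

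The counts were tested with edgeR 4.0.16 (R 4.3.3) by its quasi-likelihood test, with TMM normalization, the filterByExpr minimum count of 10, robust dispersions, sex as a covariate and all 16 libraries in the fit, which share 1 estimate of the spread. Log2 fold changes carry standard errors from the F statistic. On simulated counts for this comparison (17236 genes tested), the test recovered 4% of genes changed 1.5-fold, 30% at 2-fold, 78% at 4-fold and 94% at 8-fold, with 3 false calls of 106. The simulated libraries kept each gene's mean and spread but had no length slope, sex effect or other shared difference, so these data may differ. Members and the 52 gene lists (1025 symbols, 1 not found, 2 by synonym) were chosen with earlier results of these data known. Lists could share genes, such as Ctss in the pan-myeloid and lysosomal lists, so their counts are not independent. Named genes were Thy1, App, Psen2 and Prnp; the 15 largest rises and all falls that had approved symbols, no overlap and a log2 CPM averaging at least 1; the 12 genes called higher of highest CPM; the 4 called members of smallest p in each list, or 2 where none was called; the 20 called genes of smallest p in no list; the 6 of smallest p in the sex and Dp16 differences; and cell type markers. Some genes that this rule selects are not reported here. Promoters are RefSeq windows of GRCm38.p6. Alternatives were RLE size factors, DESeq2 1.42.0, no filter, no sex term, a replicate block, the 8 libraries alone, each library left out, limma-trend (limma 3.58.1) on log2(RPKM + 0.1) and log2(RPKM + 1), a length slope covariate (from protein-coding genes whose log2 CPM averaged above 2), the 3 libraries of lowest slope left out, and voom with sample weights.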

Additional observations from a re-analysis of the deposited data

Results flagged for a closer look

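In 13 of 196 groups of 4 libraries (6.63%; 98 genes in 2 groups each), the highest or lowest library stood apart from the other 3 by Dixon's test at the 95% level, where chance gives about 1 in 20. In 8 of the 13 the library was wild-type replicate 3. It was the highest wild-type library for Gfap (290 CPM, against 197 to 203 in the others), Ctsd (433 CPM, against 314 to 332), C1qa (155 CPM, against 106 to 110), Fcer1g (22.6 CPM, against 13.4 to 14.4), Gusb (19.7 CPM, against 14 to 14.9) and Cxcl16 (4.83 CPM, against 1.69 to 2). It was the lowest for Gpnmb (1.03 CPM, against 4.03 to 4.52) and Hk3 (0.543 CPM, against 1.4 to 1.5). Wild-type replicate 1 was the highest for Csf3r (4.88 CPM, against 2.96 to 3.2).

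Among the 5xFAD libraries, replicate 4 stood above the others for Ttr (615 CPM, against 15 to 30.5) and below them for Cyth4 (23.6 CPM, against 34.7 to 36.7). Replicate 1 was the lowest for Cyba (42.1 CPM, against 54.6 to 56.8) and the highest for Ly6c2 (0.857 CPM, against 0.48 to 0.493).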

How the results depend on the processing

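The 264 higher and 2 lower calls became 400 and 24 with DESeq2, 408 and 18 without the low-count filter, 115 and 0 in the 8 libraries alone, 700 and 226 with the length slope covariate, and 804 and 396 with voom sample weights; the cause was not tested. Without the 3 libraries of lowest slope (wild-type replicate 3 and Dp16 replicates 3 and 4) they were 370 and 7. Genes lower numbered 1 without the sex term and 1 with limma-trend on log2(RPKM + 1). Leaving out each library in turn gave 165 to 287 higher and 0 to 3 lower. The difference by Dp16 had 3 calls with DESeq2 and 25 without the filter. The difference by sex had 129 without the filter and 0 to 5491 with each library left out; 5491 came without wild-type replicate 1. With the replicate number as a block, 237 genes rose and 0 fell, so the calls of Mme and Emb were lost. The numbers share only a label: deviations of same-numbered libraries correlated at 0.463, 0.0498, -0.233 and -0.234, and not every library correlated best with its own number.

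Of the 95 named genes called, 68 were called in all 27 alternatives and 76 in all 16 fits that left out a library, and 0 changed sign. At 4 against 4 libraries, the simulated recovery of 30% at 2-fold limits what the test can show for smaller changes. The simulation held no length slope or other shared library difference, so recovery in these data may differ. The sex difference was not run with a replicate block.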
